A study of Mus musculus with 5 samples.

Results

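The cells described here are those that the authors labelled Macrophages/APCs (macrophages and antigen-presenting cells) in mouse shin muscle 2 days after an injection of the myotoxin notexin. They were chosen by that label alone. Of the 4903 labelled cells of day 2 they are all but the 4357 under other labels, and they make up 3.05% of the 17923 labelled cells of all days. The day 2 library came from the tibialis anterior of C57Bl/6 mice, female and 7 months old. The muscle was digested with Collagenase D and Dispase II, red cells were lysed, live cells were sorted by PI and Calcein-AM staining, and mRNA was counted with 10x 3' v2 droplet libraries. The main set for comparison is the Immune label of the same library, with 3405 cells, followed by the labels B cells (169 cells), FAPs (667), Endothelial (58) and MuSCs and progenitors (58). Libraries of day 0 (no injury, 4 months, female, 2 sequencing runs in 1 matrix), day 5 (notexin, 4 months, female) and day 7 (notexin, 4 months, male) serve only for levels by day, and differ from day 2 in age and, at day 7, in sex. The labels do not say how many mice a library holds.

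Antigen-presenting cells show fragments of ingested protein to CD4 T cells on MHC class II molecules. Dendritic cells are specialised for this task and arise in several kinds: conventional type 1 and type 2 cells, plasmacytoid cells that sense viral nucleic acid, and mature cells that use the receptor CCR7 to travel to lymph nodes. In injured muscle, macrophages, many of them derived from blood monocytes, clear debris and support repair.

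All day 2 cells come from 1 library, so there is no replicate and no test. The authors drew their labels from clusters of these same cells, so differences between labels are descriptions of how the cells were sorted into groups. UMI counts (unique molecular identifiers, 1 per captured mRNA) were summed over the cells of a label and given as counts per 1000000 UMIs (cpm). Ratios are log2 of the summed cpm under Macrophages/APCs over that under Immune, with 95% exact binomial intervals, which cover counting error only. A gene counts as higher or lower from 2-fold on, given at least 20 UMIs over both labels. Fewer cells of a kind and less RNA per cell cannot be told apart in such sums.

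The label made up 11.1% (10.3 to 12.1) of the labelled day 2 cells and 13.3% (12.2 to 14.3) of the cells under the Macrophages/APCs, Immune and B cells labels. It held 4616032 UMIs, against 39995274 under Immune. Its cells were shallower, with a median of 7562 UMIs and 2035 genes, against 9665 UMIs and 2434 genes under Immune, and the median mitochondrial share was 2.05% against 2.37%. A count of 3, used as the floor for genes at 0, equals 0.650 cpm under Macrophages/APCs and 0.0750 cpm under Immune. Barcodes of 6, 1 and 3 of its cells also occurred among the cells of days 0, 5 and 7.

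The 4 genes proposed as marks of these cells all stood higher in them than under Immune. Cd209a, a C-type lectin of monocyte-derived and type 2 dendritic cells, stood at 980.5 cpm under Macrophages/APCs and 26.0 cpm under Immune, a log2 ratio of 5.24 (5.14 to 5.34). H2-Ab1, the class II beta chain, stood at 11557 cpm against 964 cpm, a ratio of 3.583 (3.564 to 3.602). The label's cells thus carried class II RNA far above the Immune cells, and they did not stand alone in this, since the B cells label held 13053 cpm of H2-Ab1. Clec10a, a lectin that binds galactose-type sugars, stood at 636 cpm against 83.1 cpm, a ratio of 2.94 (2.86 to 3.01). Siglech, a surface lectin of plasmacytoid dendritic cells, stood at 138 cpm against 1.15 cpm, a ratio of 6.91 (6.48 to 7.38).

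These 4 genes were spread very differently over the cells. H2-Ab1 had a UMI in 534 cells, with quartiles of 46.5, 93.5 and 143 UMIs. Cd209a was found in 383 cells, with quartiles of 0, 4 and 12 UMIs and a highest value of 95. Siglech was found in 84 cells, and the 56 cells with at least 5 UMIs held 91.1% of its UMIs, so this mark belongs to a minority of the label. After each cell was thinned at random to 2000 UMIs, Cd209a was seen in 57.9% (53.6 to 62.1) of Macrophages/APCs cells, 2.53% (2.03 to 3.11) of Immune cells and 0.750% (0.244 to 1.74) of FAPs, the stromal cells, which should lack it. Without thinning, the shares were 70.1%, 7.78% and 6.60%, at median depths of 7562, 9665 and 12321 UMIs, so at full depth the Immune share lay close to that of the stromal cells.

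**Figure D1:**
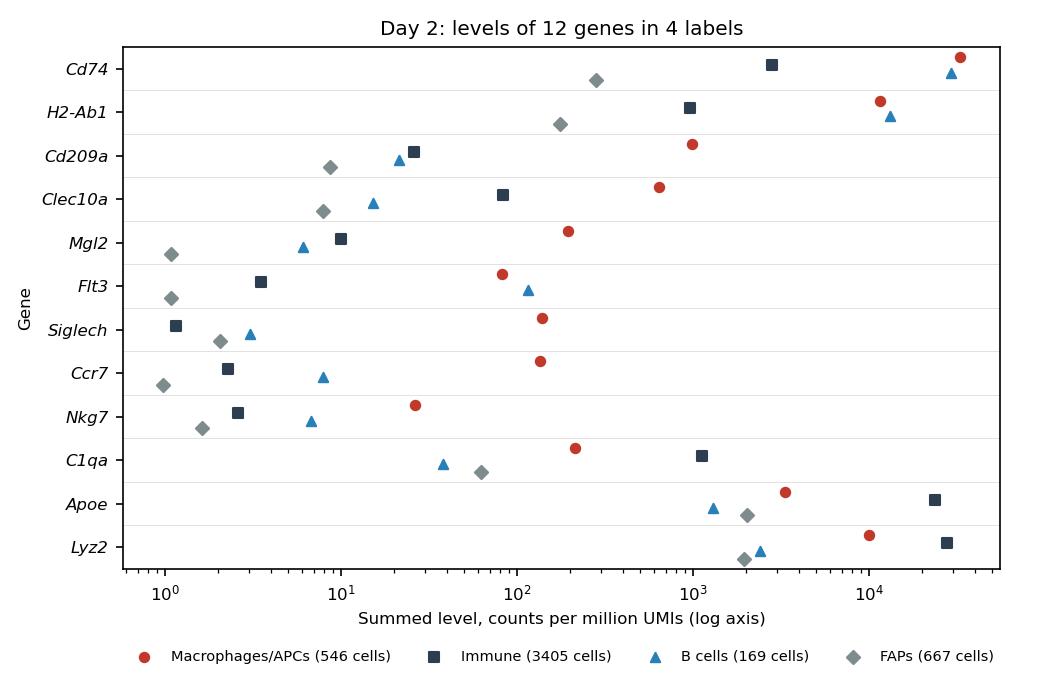
Summed levels of 12 genes (rows) on a log axis of cpm, for 4 day 2 labels (colours and symbols), with Macrophages/APCs uppermost in each row. The Macrophages/APCs point lies right of the Immune point for the first 9 genes, Cd74 to Nkg7, and left of it for C1qa, Apoe and Lyz2, where it stays right of the B cells and FAPs points.

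Over all genes, 1502 of 12169 tested stood higher under Macrophages/APCs than under Immune (12.3%) and 1450 stood lower (11.9%), with a median ratio of -0.03. On the authors' log-normalized values, where genes at low levels move little, 40 stood 2-fold higher and 64 lower. The counts of list members below are read against these shares. Among genes of at least 100 cpm and 50 UMIs in the label where they stood higher, the largest ratios were those of Ccl17 at 7.47 (6.86 to 8.14), Ccl22 at 7.23 (6.70 to 7.81) and Siglech. Ccl17 and Ccl22 encode chemokines that attract T cells bearing CCR4. The next in rank were Cd7 at 5.89 (5.64 to 6.16), a surface protein of lymphoid and some dendritic cells, and Ccr7 at 5.88 (5.56 to 6.22). The remaining genes of the 15 highest were H2-Oa, Klrd1, Cd209d, Cd209a, Klra17, Mgl2, Tnip3, Tnfsf9, Traf1 and Plac8, the lowest of them, Plac8, at 3.92 (3.83 to 4.02). Some of these sizes rest on few cells: without sub-clusters 1, 2, 6 and 7, described below, the ratio of Siglech came to 1.82 and that of Plac8 to 1.78. These sub-clusters were chosen for this after seeing the data. On the authors' log-normalized values, Ccl17 came to 0.083, Ccl22 to 0.16 and Siglech to 0.52. With each cell weighted the same but no log taken per cell, they came to 6.72, 7.12 and 7.23, so averaging over cells alone did not shrink them.

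Of the 11 genes of MHC class II presentation, 10 stood higher and 1 lower, with a median ratio of 3.58. The chains H2-Aa at 15110 cpm under Macrophages/APCs against 1267 cpm under Immune and H2-Eb1 at 5029 cpm against 402 cpm had ratios of 3.58 (3.56 to 3.59) and 3.65 (3.62 to 3.67). Cd74, the invariant chain that fills the peptide groove during transport, stood at 32880 cpm against 2794 cpm. Its ratio of 3.56 (3.55 to 3.57) lies beside those of the chains and of Ciita, the master activator of class II transcription, at 3.58 (3.11 to 4.05). The peptide loaders H2-DMa and H2-DMb1 had smaller ratios of 2.546 (2.496 to 2.596) and 2.783 (2.721 to 2.846). H2-Oa, a chain of the inhibitor of that loading, had the largest at 5.61 (5.28 to 5.95), with 108 cpm against 2.23 cpm. The B cells label held 134 cpm of H2-Oa. Ctss, cathepsin S, which trims the invariant chain, was the member that stood lower, at 2047 cpm against 4702 cpm, a ratio of -1.20 (-1.23 to -1.17).

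Since 10 class II genes stood higher together, the promoters of the list are shown where they hold the Y box, an element of class II promoters bound by NF-Y, searched as the letters CTGATTGG on either strand. RefSeq promoters of build GRCm38.p6 (250 bases before to 50 after the start) were found for 8 of the 11 genes, and 3 of them held the letters, all in the direction of the gene. Of all 32851 RefSeq promoters of this length, 4.10% held them. The shorter core ATTGG, which lies within these letters, was held by 7 of the 8 genes and by 37.4% of all promoters. The 108 bases around the Y box letters, in capitals, lie at chr17:34287817-34287924 on the minus strand for H2-Aa, at chr17:34305755-34305862 on the plus strand for H2-Eb1 and at chr17:34092283-34092390 on the plus strand for H2-Oa, each written 5′ to 3′.
H2-Aa: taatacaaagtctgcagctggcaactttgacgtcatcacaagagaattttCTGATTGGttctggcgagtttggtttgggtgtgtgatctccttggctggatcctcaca
H2-Eb1: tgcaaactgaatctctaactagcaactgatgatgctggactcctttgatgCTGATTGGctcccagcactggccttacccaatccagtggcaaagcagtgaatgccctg
H2-Oa: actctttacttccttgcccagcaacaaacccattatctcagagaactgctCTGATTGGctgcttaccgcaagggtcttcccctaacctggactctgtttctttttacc
The first letter of the match lies 51, 62 and 46 bases before the start of H2-Aa, H2-Eb1 and H2-Oa. A match of letters describes the sequence and does not show that the site is bound in these cells.

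Of the 8 measured costimulation genes, which give T cells the second signal, 8 stood higher and 0 lower, with a median of 1.66. Tnfsf9, the 4-1BB ligand, stood at 180 cpm under Macrophages/APCs against 10.8 cpm under Immune, a ratio of 4.06 (3.89 to 4.23). The B7 genes Cd80 and Cd86 had ratios of 1.58 (1.12 to 2.03) and 1.34 (1.15 to 1.53), and Cd40 of 1.44 (1.24 to 1.64). Cd83, which marks activated dendritic cells, stood at 469 cpm against 141 cpm. By contrast, only 1 of 8 measured class I genes stood higher, the peptide transporter gene Tap1 at 1.43 (1.25 to 1.60), and B2m, the class I light chain, stood at -0.07 (-0.09 to -0.05).

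C-type lectins, receptors for sugars on microbes and cells, went both ways, with 7 of 15 measured members higher, 2 lower and a median of 0.89. Cd209d, a paralog of Cd209a, stood at 235 cpm under Macrophages/APCs against 5.80 cpm under Immune, a ratio of 5.34 (5.13 to 5.55). Mgl2, close in sequence to Clec10a, stood at 196 cpm against 10.0 cpm, and Clec4b1 at 241 cpm against 28.6 cpm. Reads shared between such paralogs may be split between them by the authors' counting. The members that stood lower were Clec4d at -2.23 (-2.46 to -2.01) and Clec5a, both activating receptors of myeloid cells.

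The lists of dendritic cells set the label further apart from Immune. Of 7 pan-dendritic genes, 6 stood higher and 0 lower, with a median of 3.83. This is not particular to the label, since the pan-dendritic sum was 845 cpm here and 1478 cpm under B cells. Under Immune the sum was 625 cpm, much of it from Id2, the member short of 2-fold, so the sums hide the gap in the other members. The type 2, mature and plasmacytoid sums were lower under B cells, at 338, 100 and 42.2 cpm, against 2751, 550 and 600 cpm here. Flt3, the receptor for the dendritic growth factor FLT3 ligand, stood at 81.7 cpm under Macrophages/APCs, 3.53 cpm under Immune and 116 cpm under B cells. Zbtb46, a transcription factor of conventional dendritic cells, had a ratio of 5.14 (4.21 to 6.19) from 49 UMIs against 12. Of 9 genes of type 2 cells, 8 stood higher and 1 lower, with a median of 4.12, and the lower member was Sirpa, a receptor that macrophages share, at -1.18 (-1.29 to -1.07). All 10 genes of mature dendritic cells stood higher, with a median of 3.26, and all 9 plasmacytoid genes did, with a median of 6.91. The plasmacytoid result belongs to a minority of the cells, by the sub-clusters described below. The list summed to 7158.5 cpm in sub-cluster 6 and 1244.5 cpm in sub-cluster 7. In sub-clusters 0 to 5 it summed to 47.1 to 129 cpm, near the 66.5 cpm of Immune. Of 7 measured type 1 genes, 2 stood higher, Naaa and Clec9a, and Xcr1, the chemokine receptor that marks type 1 cells, had 1 UMI in the whole label.

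Among 12 dendritic transcription factors, 9 stood higher than under Immune and 0 lower. Their summed level was 1867 cpm under Macrophages/APCs, 1371 cpm under Immune and 2951 cpm under B cells. Spib, a factor of plasmacytoid cells, had the largest ratio at 5.73 (5.02 to 6.51), from 116 UMIs under Macrophages/APCs against 19 under Immune. Irf4, which type 2 cells need for their function, stood at 21.2 cpm against 2.28 cpm, while Irf8, a factor of type 1 and plasmacytoid cells, stood at 203 cpm against 148 cpm, short of 2-fold. Id2, a factor of conventional dendritic and innate lymphoid cells, and Spi1 (PU.1), a general myeloid factor, stood at -0.09 and 0.04, short of 2-fold.

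Chemokines went both ways, with 8 of 19 higher and 6 lower. Beside Ccl17 and Ccl22, Ccl5, which recruits T cells and monocytes, stood at 136 cpm under Macrophages/APCs against 22.0 cpm under Immune, and Cxcl2, which recruits neutrophils, at 1056 cpm against 297 cpm. The lower members include Ccl8 at -3.68 (-4.07 to -3.32) and Pf4, platelet factor 4, at -3.19 (-3.25 to -3.12). Of 8 measured chemokine receptors, 4 stood higher and 1 lower. Ccr2, the receptor by which monocytes leave the marrow, stood at 239.6 cpm against 65.0 cpm, and Cx3cr1, a receptor of resident and patrolling cells, at 44.2 cpm against 117 cpm. Among 12 measured cytokines, 5 stood higher and 0 lower, led in UMIs by Il1b, the inflammatory interleukin 1 beta, at 533 cpm against 48.8 cpm, a ratio of 3.45 (3.36 to 3.53).

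Genes of macrophages stood lower. Of 13, 10 stood lower and 1 higher, with a median ratio of -1.80. Apoe, a lipid carrier, stood at 3313 cpm under Macrophages/APCs against 23479 cpm under Immune, a ratio of -2.83 (-2.85 to -2.80). Lyz2, lysozyme, stood at 9952 cpm against 27627 cpm and the complement gene C1qa at 214 cpm against 1118 cpm. Csf1r, the receptor for macrophage colony stimulating factor, stood at -0.84 (-0.95 to -0.73), short of 2-fold. The member that stood higher was Cd14, the co-receptor for endotoxin, at 704 cpm against 284 cpm. The label that names macrophages thus held less RNA of these genes than the Immune label, which does not name them.

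All 14 genes of lipid handling and repair stood lower, with a median of -2.70. Spp1, osteopontin, stood at 658 cpm under Macrophages/APCs against 7180 cpm under Immune, Gpnmb, a glycoprotein of lysosome-rich macrophages, at 148 cpm against 1463 cpm, and the lipid sensor Trem2 at 275 cpm against 1537 cpm. By the same rule of level as above, the smallest ratios of all genes were those of Gdf3 at -3.73 (-4.25 to -3.26), Ccl8 and Folr2, a folate receptor of resident macrophages, at -3.66 (-3.92 to -3.42). The other 12 of the 15 lowest were Syngr1, Spp1, Cbr2, Gpnmb, Pf4, Ctsl, Atp6v0d2, Fabp5, Stab1, Ms4a7, Fam20c and Igf1, the least low of them at -3.01 (-3.32 to -2.72). Of 6 measured resident macrophage genes, 4 stood lower and 2 higher, with a median of -3.10, the higher ones being Timd4 at 3.79 (3.17 to 4.42) and the haemoglobin scavenger Cd163 at 2.75 (2.37 to 3.13), from 59 and 104 UMIs.

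Monocyte genes split, with 5 of 12 higher and 4 lower, and their median of 0.46 turned to -0.45 without the sub-cluster led by macrophage genes that is described below. Plac8 and Ly6c2, which encodes the Ly6C surface protein, had ratios of 3.92 and 2.87, while Chil3, a chitinase-like protein of young monocytes, stood at -2.59 (-2.97 to -2.24). Monocyte genes were not raised across the label. The list summed to 5690 cpm in the plasmacytoid-like sub-cluster 6 and 4643 cpm in sub-cluster 7, against 408 to 1385 cpm in the others. Plac8 also stood at 537 cpm under B cells. Cell cycle genes stood lower, with 13 of 20 past 2-fold, 0 higher and a median of -1.23. Cdk1, the mitotic kinase, had 12 of the 4616032 UMIs under Macrophages/APCs against 1185 of the 39995274 under Immune. The replication genes Pcna and Mcm5 stood at -0.19 (-0.40 to 0.01) and 0.16 (-0.20 to 0.50).

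Of 15 genes of dissociation stress, which tissue digestion induces, 9 stood higher and 0 lower, with a median of 1.05. The heat shock gene Hspa1a stood at 2116 cpm under Macrophages/APCs against 535 cpm under Immune and the immediate early gene Ier2 at 475 cpm against 89.7 cpm, while Fos and Jun stood at 0.29 and 0.11. The part of this stress response in the other differences was not tested. Of 13 interferon response genes, 5 stood higher and 0 lower, with a median of 0.66. Bst2, tetherin, which is also on plasmacytoid cells, stood at 576 cpm against 246 cpm.

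**Figure D2:**
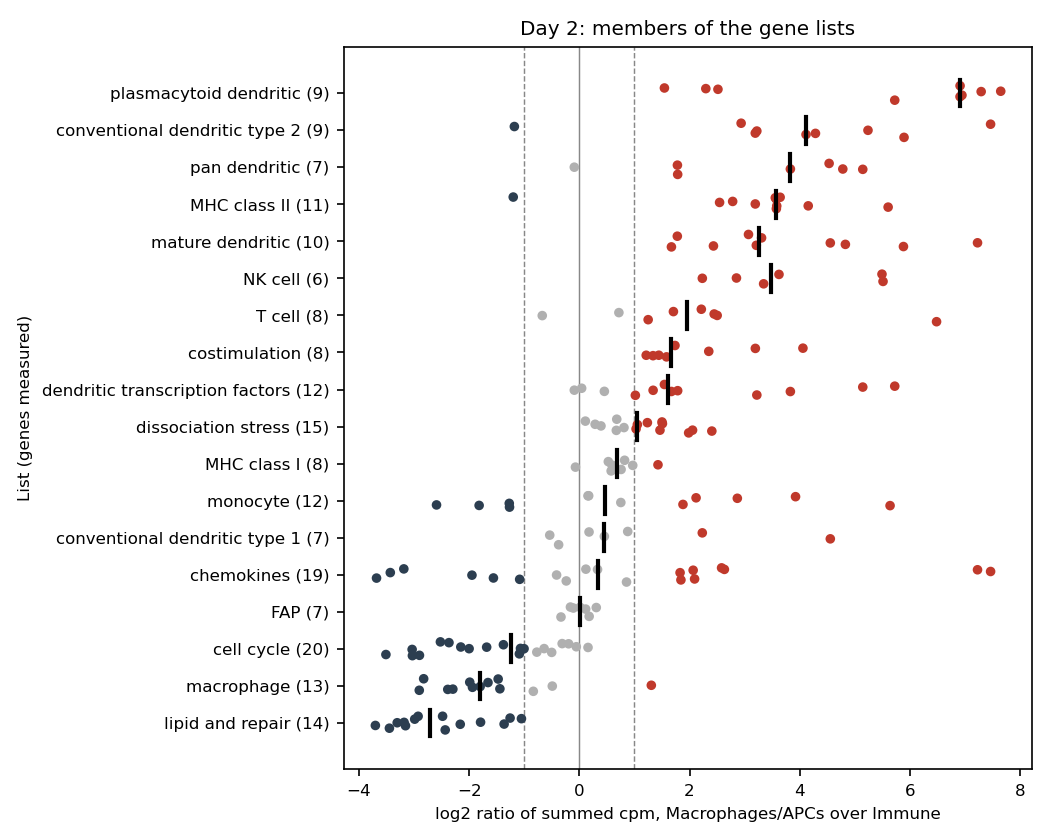
Log2 ratio of summed cpm, Macrophages/APCs over Immune at day 2, for the measured members of 18 lists (rows). Each point is a gene, red at least 2-fold higher, dark blue at least 2-fold lower and grey between, black bars are medians, and dashed lines mark 2-fold. Among the lists plotted, medians run from 6.91 for plasmacytoid genes to -2.70 for lipid and repair genes, and the FAP list lies around 0. The plasmacytoid genes were high mainly in sub-cluster 6.

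Markers of other cell types were present at low levels. Of 8 measured T cell genes, 6 stood higher and 0 lower, and of 6 measured NK cell genes, 6 stood higher. Their summed levels were 94.7 cpm and 299 cpm under Macrophages/APCs, against 86.0 cpm and 12.8 cpm under Immune. Most of the NK sum was Klrd1, the CD94 receptor chain, at 237 cpm against 5.20 cpm, while the cytotoxic granule genes Nkg7 and Gzma stood at 26.4 and 18.0 cpm. Of the B cell genes, Ms4a1 had 0 UMIs and Cd79a had 4, and the 2 measured genes stood neither higher nor lower. The list summed to 21.4 cpm under Macrophages/APCs, 15.8 cpm under Immune and 4.89 cpm under B cells. Past 2-fold were 2 of 4 measured genes of type 2 innate lymphoid cells and 2 of 2 of mast cells, all higher, with summed levels of 46.6 and 9.75 cpm under Macrophages/APCs against 18.7 and 1.53 cpm under Immune. Of 5 neutrophil genes 2 stood higher and 2 lower, and of 6 genes of nonclassical monocytes 2 stood higher and 1 lower. Among 6 endothelial genes 1 stood higher and 1 lower, with a sum of 113 cpm against 593 cpm but a median of 107% of the Immune level. The lower member was Fabp4, which is also in the lipid and repair list. The 3 muscle stem cell genes, the 5 of mature muscle and the single ones measured for red cells and platelets summed to under 20 cpm each under both labels. The 7 FAP genes stood at about the same level under both labels, with a median ratio of 0.01 and a summed 518 cpm against 531 cpm, where FAPs themselves had 27785 cpm. The macrophage genes stood at a median of 28.7% of their Immune level under Macrophages/APCs, 26.9% under Endothelial, 7.04% under FAPs, 4.41% under B cells and 4.38% under MuSCs and progenitors.

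The cells of the label were clustered again to see how mixed they are, on 1000 variable genes with the Leiden method at resolution 0.5. This gave 8 sub-clusters, numbered 0 to 7, of 126, 12, 31, 83, 145, 62, 54 and 33 cells. Names were given from marker lists, and at resolutions 0.3 and 1.0 the cells under a type 2 dendritic name came to 61 and 138 in place of 145, and those under the NK name to 31 and 16 in place of 31. Since the sub-clusters were made from these genes, their leading genes are descriptions. Sub-clusters 0, 4 and 7, with 304 cells together, got no name. For sub-cluster 0 the rule could hardly give a macrophage name, since markers were measured against Immune, where macrophage genes stood higher. It had 4 macrophage markers among its leading genes, but 1 of 13 at 2-fold above Immune. Sub-cluster 7 had 4 of 12 monocyte markers 2-fold above Immune and 2 among its leading genes. It fell short of the share of a list that was required only after the data were seen.

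Sub-cluster 4 was the largest with 145 cells and held 43.7% of the Cd209a UMIs of the label. It was led by Il1b at 1197 cpm, Il1r2, a decoy receptor for interleukin 1, the class II modulators H2-Oa and H2-Ob, and Tnfsf9 and Traf1 of TNF family signalling. Cd209a stood at 1796 cpm there and was found in 137 cells. The summed class II list stood at 95215 cpm, and macrophage genes at a median of 8.63% of the Immune level. These cells had 6 of 9 type 2 dendritic genes at least 2-fold above Immune, after adding 20 cpm to both levels. None of the type 2 genes was among the 10 leading genes, so these cells stayed unnamed.

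Sub-clusters 3 and 5, with 83 and 62 cells, met the naming rule for conventional dendritic type 2 cells. The name is less secure for sub-cluster 3. Its summed type 2 list stood at 2798 cpm, against 4260 cpm in sub-cluster 5. The sum was 4174 and 3312 cpm in the unnamed sub-clusters 4 and 7, and 2788 cpm in sub-cluster 2. In sub-cluster 3, Cd209a had a UMI in 51 of the 83 cells, and macrophage genes stood at a median of 26.7% of the Immune level. Sub-cluster 5 had Cd209a at 2177 cpm, found in 61 of its cells, and was led by the immediate early genes Jun and Egr1, with Jun at 938 cpm against 182 cpm in sub-cluster 3. Sub-cluster 3 had Mgl2 at 491 cpm and was led by Retnla, a secreted protein that interleukin 4 induces, and Ccl17, but few cells carried these. In the whole label, 5 cells with at least 5 UMIs held 94.5% of the Retnla UMIs and 5 held 95.7% of the Ccl17 UMIs, with 1 cell at 227. Lyz2 stood at 13404 cpm in sub-cluster 3, against 5036 cpm in sub-cluster 5.

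The 126 cells of sub-cluster 0 were led by Mmp12, a macrophage elastase, Cxcl1, the 3 C1q genes, Trem2, Apoe and Lpl, and were the deepest, with a median of 9719.5 UMIs. Macrophage genes stood there at a median of 61.7% of the Immune level, against 4.23% to 26.7% in the other 7. C1qa had a UMI in 95 of the 126 cells, and 74.8% of the label's C1qa UMIs lay here. H2-Ab1 stood at 7951 cpm and Cd209a at 196 cpm, both still above the 964 cpm and 26.0 cpm of the Immune label. With these cells left out, an alternative chosen after seeing the data, the genes past 2-fold came to 1711 higher and 1743 lower, and the macrophage median to -2.26.

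Sub-cluster 6, with 54 cells, was plasmacytoid dendritic-like, with all 9 markers at least 2-fold above Immune. Siglech had a UMI in 54 of the 54 cells and stood at 1922 cpm, and 88.3% of the label's Siglech UMIs lay here. Klk1, a kallikrein, stood at 940.4 cpm, and 276 of its 278 UMIs in the label came from these cells. Irf8, Bst2, the B-lineage surface gene Ly6d and the gut-homing receptor Ccr9 were also among the leading genes. Class II was low for this label, with a summed 17850 cpm against 48481 cpm or more in the other 7. These cells were the shallowest, with a median of 5316.5 UMIs, and had the highest median mitochondrial share, 4.04%.

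Sub-cluster 7, with 33 cells, had no name. Cd209d stood at 2056 cpm and was found in 32 cells, Cd209a in 33 and Siglech in 17 at a lower 228 cpm. Lag3, an inhibitory receptor that binds class II, stood at 693 cpm, and Plac8 and Ly6c2 at 3064 cpm and 941 cpm. It shares Plac8 and Ly6c2 with sub-cluster 6, at 4017 cpm and 913 cpm there, but had 0 UMIs of Klk1. Flt3 stood at 315 cpm, the highest of the 8, and macrophage genes were lowest, at a median of 4.23% of the Immune level.

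Sub-cluster 1, with 12 cells, was mature dendritic-like, with 10 of 10 markers. Ccl22 stood at 4631 cpm, Ccr7 at 2429 cpm and Fscn1, an actin bundler of dendrites, at 795 cpm. Class II was highest here, with a summed list level of 106800 cpm, while Cd209a had 2 UMIs in all. Ccr7 was found in 11 of the 12 cells, with a median of 19 UMIs, but only 36.5% of the label's Ccr7 UMIs lay here and 38.1% lay in sub-cluster 4.

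Sub-cluster 2, with 31 cells, met the naming rule for NK cells, with Nkg7 and Gzma among its leading genes. It was itself mixed: Nkg7 had a UMI in 14 cells, Cd209a in 15 and Cd3e, a T cell receptor chain, in 9. Its other leading genes include the interferon-induced Isg15, Ifit3 and Ifit1, and its summed class II level was 72062 cpm. It is therefore called here by Nkg7 and not by a cell type. Of the label's 122 Nkg7 UMIs, 121 lay in it, whereas Klrd1 stood between 44.2 cpm and 583 cpm in all 8.

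**Figure D3:**
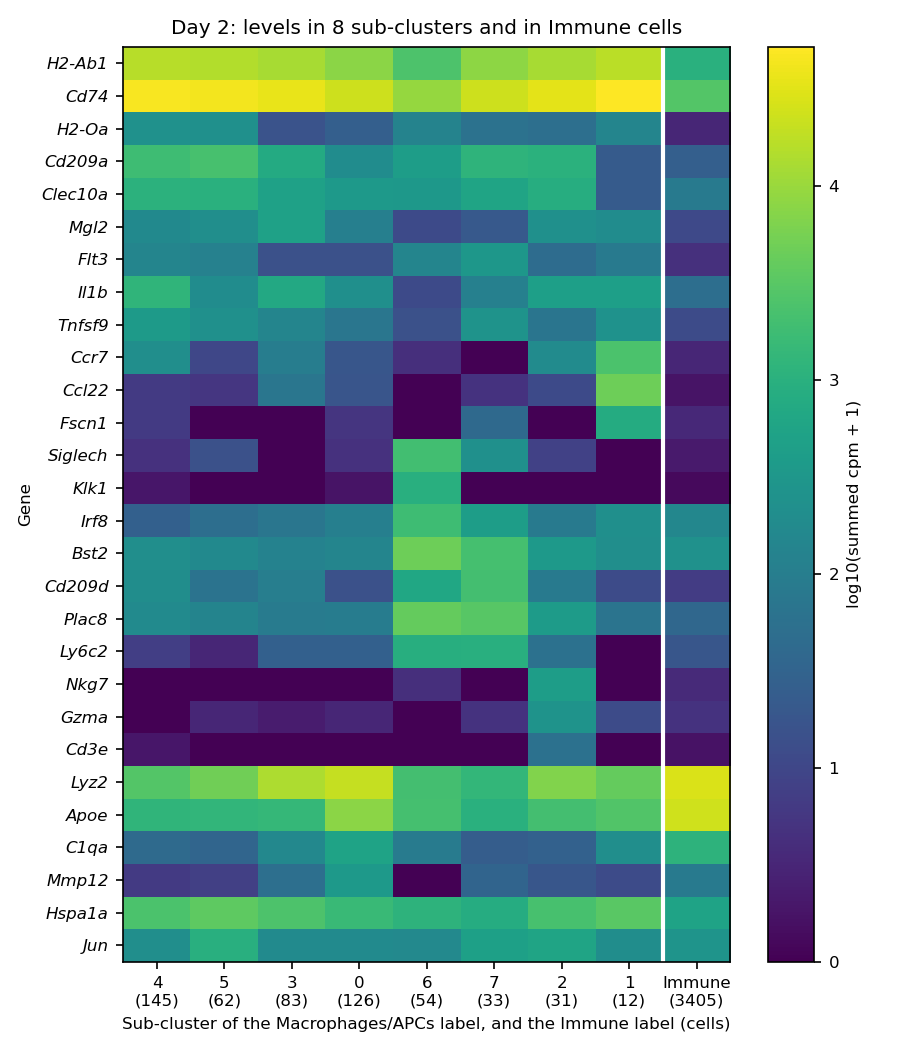
Levels of 28 genes (rows) as log10 of summed cpm plus 1, in the 8 sub-clusters of the Macrophages/APCs label (columns, with cells) and in the Immune label at the right of the white line. Siglech and Klk1 peak in sub-cluster 6, Ccl22 and Ccr7 in sub-cluster 1, Nkg7 in sub-cluster 2, Cd209d in sub-cluster 7 and C1qa in sub-cluster 0 among the 8, while H2-Ab1 is at 2450 cpm in sub-cluster 6 and at 7951 cpm or more in the other 7.

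Whether single cells mixed these programmes was read from cells with at least 3 UMIs of each gene of a pair. Siglech and Ccr7 were never together: 65 cells had the first, 57 had the second and 0 had both. Siglech and Cd209a were together in 28 of 65 and 316 cells, and 193 cells had neither. Of the 28, 19 lay in sub-cluster 6 and 9 in sub-cluster 7. All 32 cells with Klk1 also had Siglech. Cd209a and Clec10a were together in 234 of 316 and 313 cells.

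The macrophage gene C1qa was found with Cd209a in 19 cells, of which 14 lay in sub-cluster 0. It was found with H2-Ab1 in 77 of the 78 cells that had it. H2-Ab1 had at least 5 UMIs in 506 cells of the label, so this pairing does not set the C1qa cells apart. Nkg7 was found with Cd209a in 4 of 12 cells, which had a median of 10700 UMIs, against 6376 UMIs for the 8 with Nkg7 alone. Cells with both C1qa and Cd209a had a median of 8053 UMIs, between 7503 for Cd209a alone and 10525 for C1qa alone. The part of doublets in such cells was not tested. The doublet caller Scrublet marked 2 of the 4903 cells, 1 of them under Macrophages/APCs, too few to be relied on, and no cell was removed. Of Cd209a, Siglech, Ccr7, C1qa and Nkg7, 109 cells had none at 3 UMIs, 350 had 1, 83 had 2 and 4 had 3.

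**Figure D4:**
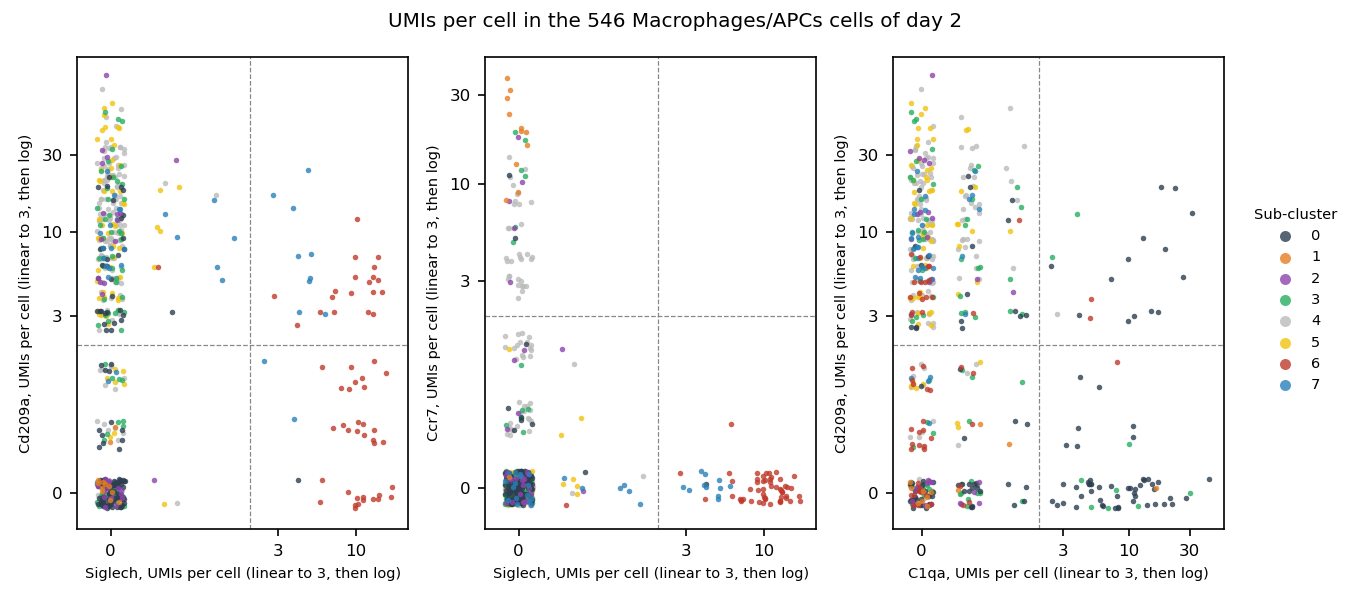
UMIs per cell of Cd209a against Siglech (left), Ccr7 against Siglech (middle) and Cd209a against C1qa (right) in the cells of the label, coloured by sub-cluster, with a little random shift, axes linear to 3 and logarithmic above, and dashed lines at the limit of 3 UMIs. The upper right field holds 28, 0 and 19 cells.

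Rules on fixed markers catch many more cells. At least 2 detected genes of the stromal list were found in 403 cells, of the lymphocyte lists in 166 and of the endothelial list in 60, and 453 cells (83.0%) met 1 or more of these. Under Immune, the rule met 86.0% of cells, 82.9% by stromal, 13.7% by lymphocyte and 21.6% by endothelial genes. The endothelial list includes Fabp4, which is also in the lipid and repair list and stood higher under Immune. The stromal gene Col3a1 stood at 92.1 cpm under Macrophages/APCs, 103 cpm under Immune and 86.2 cpm under B cells, against 9115 cpm in FAPs, so its level was alike in 3 labels that should not make it. Thinned to 2000 UMIs, C1qa was seen in 18.3% (15.2 to 21.8) of Macrophages/APCs cells, 57.9% (56.2 to 59.6) of Immune cells and 10.0% (7.87 to 12.6) of FAPs.

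The cells that the authors labelled B cells at day 2 lie close to the Macrophages/APCs cells in class II, with a summed 66735 cpm against 68959 cpm under Macrophages/APCs, but carry type 1 dendritic genes, with Xcr1 at 80.1 cpm against 0.217 cpm and Naaa at 1188 cpm against 132 cpm. Xcr1 was seen in 0 of the thinned Macrophages/APCs cells, which allows a share of up to 0.549% of cells with a UMI at that depth and sets no limit on cells that express it, and in 11.2% (6.91 to 17.0) of the B cells label, whose Cd79a count was 0.

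The levels of Cd209a and Siglech differed widely over labels and days. Cd209a stood at 355 cpm under Immune at day 0, at 980.5 cpm under Macrophages/APCs at day 2, at 104 cpm under Anti-inflammatory macrophages at day 5 and at 565 cpm under Macrophages/APCs at day 7. Siglech was at 5.39, 138, 50.2 and 138 cpm in the same order. H2-Ab1 differed less in these labels, at 10460, 11557, 9516 and 17447 cpm. Of the day 7 labels, Macrophages/APCs also held Xcr1 at 77.2 cpm, which the day 2 label of that name lacked, and Macrophages/APCs 2 held Ccr7 at 3083 cpm. The day 5 label Macrophages/APCs/T-cells had Cd209a at 8.08 cpm and Nkg7 at 1140.4 cpm. Day, age, sex and library cannot be told apart in these values.

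**Figure D5:**
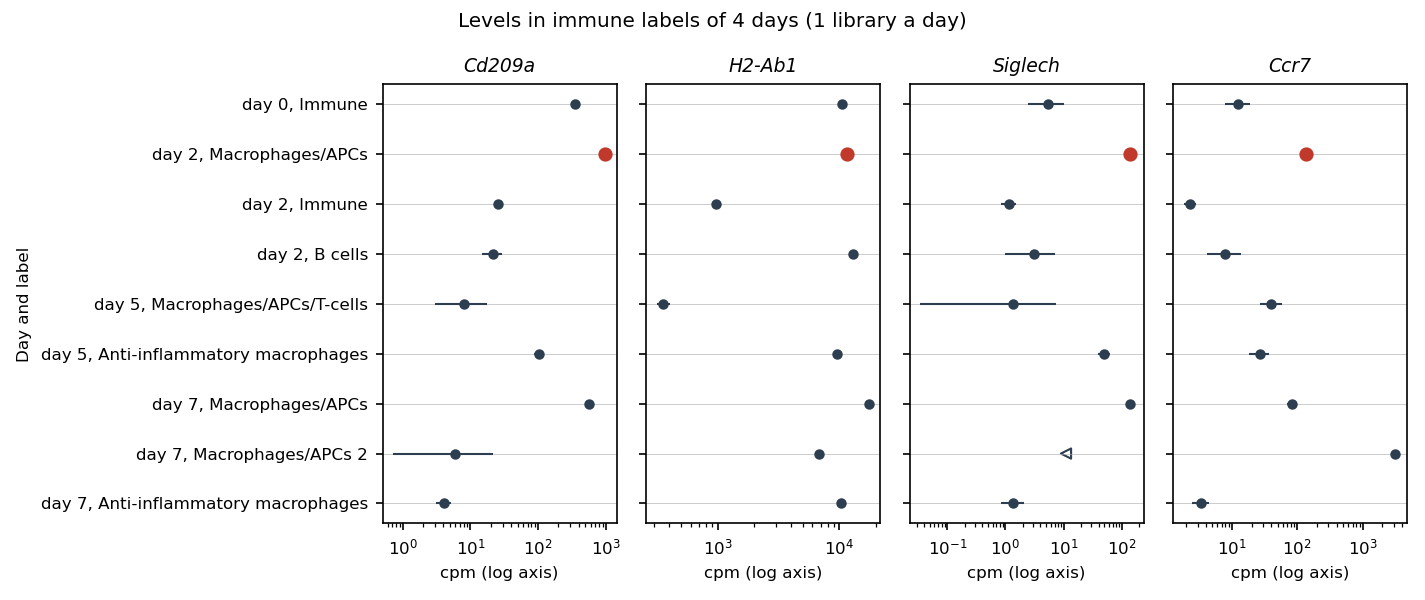
Summed cpm on log axes of Cd209a, H2-Ab1, Siglech and Ccr7 in the immune labels of days 0, 2, 5 and 7 (rows), with 95% exact intervals for counting error. Red marks the day 2 Macrophages/APCs label, and an open triangle marks the upper bound where the count was 0. Siglech reaches 138 cpm under Macrophages/APCs on days 2 and 7, and Ccr7 peaks at 3083 cpm under Macrophages/APCs 2 at day 7.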

How the data were processed

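Per the submitters' processing notes, Cell Ranger 2, Seurat 2.3.4, R 3.6.2 and build mm10 were used, with roles not given in the sources used here. The deposited tables hold raw UMI counts per gene and barcode, normalized values, which equal ln(1 + 10000 × count / cell total), a natural log, to within 5.33e-15, and in the authors' metadata a mitochondrial fraction, a UMI number and a cell label. That UMI number equalled the raw sum for 3218 of the 4903 labelled day 2 cells, with a largest gap of 24 UMIs, so raw sums were used. The 21 day 2 barcodes without a label were left out.

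Counts were summed per label, and ratios carry Clopper-Pearson 95% intervals (scipy 1.17.1). A floor of 3 counts replaced 0. The ratio was tested on simulated counts with known folds. Cells were thinned with seed 1. Sub-clusters came from scanpy 1.11.5 and igraph 0.11.9 (15 principal components, 10 neighbours), the leading genes being the 10 with the largest cpm ratio to the rest of the label after adding 20 cpm, at 50 cpm or more. A name needed at least 3 markers of a list 2-fold above Immune and at least 1 marker among the 10 leading genes. It also needed more leading markers than any other list had. For these marker counts of sub-clusters, 20 cpm were added to both levels, so they are not comparable with the list counts of the whole label. The need for at least 50% of the list, and calling sub-cluster 2 by Nkg7, were added after the data were seen. Named genes were the 15 largest and 15 smallest ratios at 100 cpm and 50 UMIs or more in the higher label, and list members. The cells, 33 lists (293 genes) and rules were chosen with earlier results of these data known. Clec7a, Trbc2, Prf1, Pax5, Iglc2, Ngp, Ms4a2 and Gp9, among the list genes, were not analysed here. Alternatives to scaling, cell weights, depth, filters, doublets and the label compared were run.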

Additional observations from a re-analysis of the deposited data

Results flagged for a closer look

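Outside the labelled cells, 21 barcodes of the day 2 raw table carry no label and enter no comparison. Their median depth was 51552 UMIs. Cd209a stood in them at 9.62 cpm (8 UMIs), against 980.5 cpm under Macrophages/APCs, and H2-Ab1 at 188 cpm (156 UMIs), against 11557 cpm. Both were above the floor of 3.61 cpm for these barcodes. Ccr7 had 0 UMIs, and Siglech had 17 UMIs in 2 barcodes.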

How the results depend on the processing

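The 30 genes of largest and smallest ratio, with H2-Ab1 and Clec10a, kept the sign of their ratio in all 320 values under the alternatives, though their sizes moved. The 30 were picked for extreme ratios in these same cells. Their kept sign was thus nearly fixed in advance and is no support for them. Other list genes were followed by their list's median where one is given here. Without the cells that Scrublet marked, 1507 genes stood higher and 1448 lower. On the authors' normalized values, as a difference of mean logs in log2 units, 40 genes stood 2-fold higher and 64 lower, and the list medians were 2.05 for class II, 0.30 for pan-dendritic, 0.92 for type 2 dendritic, -1.41 for macrophage, 0.0061 for monocyte and -0.046 for cell cycle genes. With each cell weighted the same, class II came to 3.27 and macrophage genes to -1.96. With cells thinned to 2000 UMIs, 983 genes stood higher, and class II came to 3.25, pan-dendritic to 3.0, macrophage to -2.06 and monocyte genes to 1.06. Without a minimum count 2804 genes stood higher. Without the deepest 5% of cells, class II came to 3.50 and macrophage genes to -1.94. Against all other labels of day 2, where the median of all genes was -0.21, 2855 genes stood lower, and the medians were 3.29 for class II, 2.71 for pan-dendritic, 4.38 for type 2 dendritic, -1.43 for macrophage and -0.93 for monocyte genes, the last with its sign turned. A further run kept only the 93 Macrophages/APCs cells that met no rule on mixed markers. The Immune cells were not filtered in it, though 86.0% of them met such a rule. Class II then came to 3.62, pan-dendritic to 4.17, type 2 dendritic to 4.34, macrophage to -2.08 and cell cycle genes to -1.61. Chosen after seeing the data, leaving out sub-cluster 0 gave 3.74 for class II, 4.25 for pan-dendritic, 4.26 for type 2 dendritic, -2.26 for macrophage and -0.45 for monocyte genes, again turned. Leaving out sub-clusters 1, 2, 6 and 7, also chosen after, gave 3.66, 3.12, 4.31 and -1.73 for the first 4 of these lists. At resolution 1.0 there were 13 sub-clusters and at 0.3 there were 7, in place of 8, with the cells under each name as given above. Cells with a UMI came to 47.1% at 1000 UMIs and 70.1% unthinned for Cd209a, 8.06% and 20.7% for Ccr7, and 92.7% and 97.8% for H2-Ab1, and to 15.4% unthinned for Siglech. The causes were not tested. No paired analysis was possible because the day 2 labels come from 1 library, the days share fewer than 2 replicate numbers and no test was made. Genes of few UMIs, such as Zbtb46 and Clec9a, are limited by depth.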

Other observations

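Cd8a, which T cells share with some dendritic cells, had 62 UMIs under Macrophages/APCs against 6 under Immune, and these did not lie with Cd3e. Cd8a stood at 139.7 cpm in the mature dendritic-like sub-cluster 1, 94.5 cpm in sub-cluster 7 and 75 cpm in the plasmacytoid-like sub-cluster 6, where Cd3e had 0 UMIs. In sub-cluster 2 Cd3e stood at 56.0 cpm and Cd8a at 3.50 cpm, 1 UMI. These genes were chosen after their values were seen.

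Summed chemokine levels were 13293 cpm in the mature dendritic-like sub-cluster 1 and 7534 cpm in sub-cluster 0, against 681 cpm in sub-cluster 7. In sub-cluster 0 the highest members were Cxcl2 at 2274 cpm, Ccl9 at 1323 cpm, Ccl6 at 1089.9 cpm and Pf4 at 815 cpm. In sub-cluster 1 they were Ccl22, Ccl5 and Ccl17 at 4631, 2568 and 2149 cpm.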
